A study of Mus musculus with 1 sample.

Results

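Blnk and 9 partners of its pathway were read on 1 array of the mouse macrophage-like line RAW264.7. The 10 genes were Blnk, Syk, Btk, Tec, Plcg2, Vav1, Grb2, Sh3bp2, Tyrobp and Fcer1g, of 19321 genes with a named probe, and each had 1 probe. They were chosen by gene symbol, as partners of Blnk, and Blnk itself was chosen because its probe gave strong signal here. Its signal is therefore given as a description. The array carried RNA of the parental line, grown in RPMI medium with 10% fetal calf serum and not mutagenised. The study set this line against clones that had been treated with ENU, a chemical mutagen, and picked by cell sorting because they no longer took up peroxiredoxin. Arrays of those clones were not analysed here, so no condition was compared and no p-value is given. RAW264.7 is a transformed line grown as a continuous culture, and a single sample of it shows no spread between cultures.

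An ITAM is a short stretch with a pair of tyrosines in the tail of a signalling chain. In macrophages these chains, Tyrobp (DAP12) and Fcer1g (the Fc receptor gamma chain), sit beside receptors for antibody, lectin ligands and lipids. Src family kinases phosphorylate the tyrosines, the kinase Syk docks there, and adaptor proteins then bring Tec family kinases to phospholipase C gamma, which raises calcium. Blnk is the adaptor that does this below the B cell receptor, and with Btk and Tec it also takes part in the formation of osteoclasts, a fate open to RAW264.7 cells.

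All 10 genes gave signal over both limits used for the array. The blank limit, the mean of the empty spots plus 2 SD, stood at 22.98 arbitrary units, and 72.8% of named genes passed it. The receptor limit stood at 55.8, the 95th percentile of 1221 probes for smell and taste receptors, which macrophages have little known use for, and 42.7% of named genes passed it. A gene over the blank limit alone is called between the limits. The median signal of the 10 genes was 451, and that of all named genes, each by its highest probe, was 40.1. Because Blnk entered through its signal and the partners were listed with the array's results known, nothing is read from the count of 10 of 10. Signals are spot medians in the red channel with no background subtracted. The response of a probe depends on its sequence, so each gene is set against the limits and not against other genes.

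**Figure D1:**
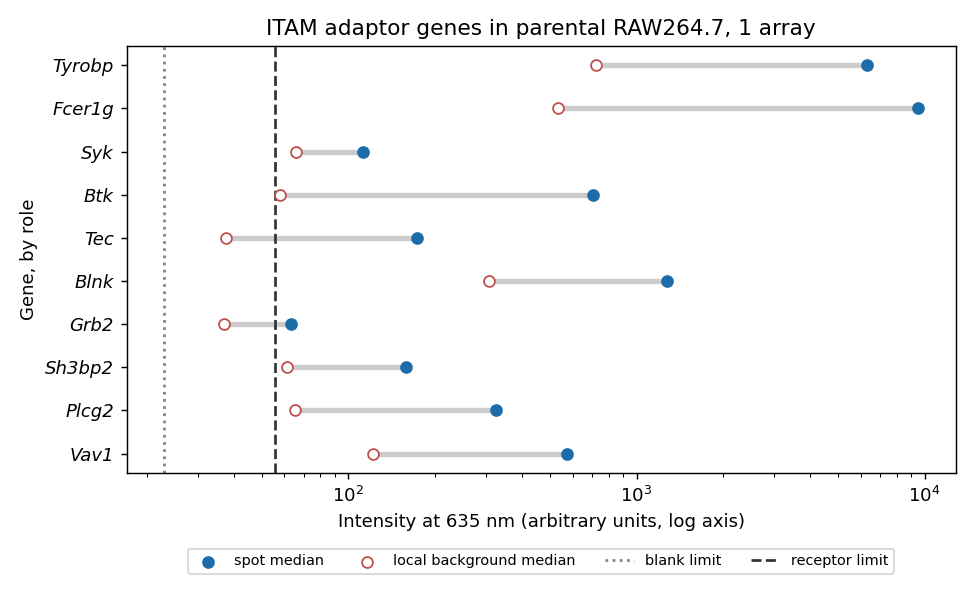
Spot median (filled) and local background median (open) of the probe of each of the 10 genes on a log axis in arbitrary units, ordered by role from ITAM chains to effectors, with the blank limit (dotted) and the receptor limit (dashed). Every filled point lies right of the dashed line at 55.8, Grb2 at 63.0 closest to it.

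The ITAM chains gave signal far over the limits. Fcer1g (probe M200004470), which carries signals of the Fc receptors and of lectins such as dectin-2, read 9468, or 170 times the receptor limit. Tyrobp (probe M200014463), the partner of Trem2 and other activating receptors, read 6325, or 113 times that limit. The chains of lymphocyte antigen receptors, which do the same work in B and T cells, stayed under the receptor limit in all 6 cases. Of all named genes, 42.7% passed that limit. Cd79a and Cd79b, the signalling chains of the B cell receptor, read 28.9 and 29.2, between the limits. Cd247, the zeta chain of the T cell receptor, read 51.5, also between the limits, and Cd3e and Cd3g read 20.1 and 21.6, not over the blank limit.

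Receptors listed here as ITAM-coupled in myeloid cells passed the receptor limit in 12 of 18 measured cases, or 66.7%, beside 42.7% of all named genes. At the blank limit 15 of the 18 passed, or 83.3%, beside 72.8%. Which chain each of them uses was not tested. The median signal of the listed receptors was 179. Fcgr1, the high-affinity receptor for IgG, read 1369 and Fcgr3, a low-affinity one, read 440. Trem2, a receptor for lipids that signals through Tyrobp, read 3808, and its relative Trem3 read 1612. The lectin Clec4d read 2300, and Clec4n, which encodes dectin-2, read 151. Clec5a, a lectin that signals through Tyrobp, read 1262 over a local background of 1058, and subtraction took it from 22.6 to 7.51 times the receptor limit. Oscar, an osteoclast receptor that uses Fcer1g, read 95.8. Between the limits lay Fcgr4 at 27.2, Trem1 at 47.1 and Siglech at 38.7. Fcer1a, the IgE-binding chain of mast cells, read 19.2, and Clec1b and Klra17 read 22.4 and 21.3; these 3 were not over the blank limit. Signal over the receptor limit was thus read for both chains and for 12 of the listed receptors in the same RNA.

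Syk and the Tec family kinases, which act next, all passed the receptor limit, by different margins. Syk (probe M300002769), the kinase that binds phosphorylated ITAMs, read 112, or 2.01 times that limit and 4.88 times the blank limit. With the limit at the 99th percentile of the receptor probes, 146, Syk lay under it at 0.768 times. Its local background was 65.7, so the spot stood 1.71 times over its surroundings. Btk (probe M400001353), the kinase lost in X-linked agammaglobulinaemia, read 706, or 12.7 times the receptor limit and 12.2 times its local background of 57.8. Tec (probe M300006553), a related kinase found in many blood cells, read 173, or 3.10 times the receptor limit. The clear margin of Btk and the narrow one of Syk are margins of single probes, and no order of transcript level follows from them.

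Of the Src family kinases, which start the cascade, 5 were measured and 2 passed the receptor limit, or 40%, beside 42.7% of all named genes. Fgr, a myeloid member, read 232 and Fyn, a widely used member, read 178. Src and Yes1 lay between the limits at 29.4 and 39.8, and Blk, the B lymphoid member, was not over the blank limit at 19.1. Fgr stood 1.30 times over its local background, and subtraction took it from 4.16 to 1.98 times the receptor limit. Lyn and Lck were not analysed here.

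Blnk (probe M200002822) read 1276 arbitrary units, which is 55.5 times the blank limit and 22.9 times the receptor limit. Its local background was also raised, at 308 against a median of 17.1 around the blank spots, and the spot stood 4.15 times over it. After subtraction of the local background, Blnk kept 968 units, or 35.8 times the receptor limit of that scale. In the authors' table it had the value 610, or 35.9 times the limit found the same way there. With normexp, a model-based background correction, the multiple was 11.6, and at the 99th percentile of the receptor probes it was 8.74. Under each of these settings Blnk lay on the same side of the limit, and its multiple ranged from 8.74 to 35.9. The probe is assigned to the transcript NM_008528.4, and binding of other transcripts to it was not tested.

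The stretch of DNA before the start of Blnk is shown with those of 3 partners, because PU.1, the ETS-family factor of macrophages and B cells, binds sites with the core GGAA. No binding was measured here. Each window holds the 250 bases before the RefSeq start, 5′ to 3′ on the strand of the gene, from assembly GRCm38.p6. The windows are Blnk at chr19:40994222-40994471, minus strand; Vav1 at chr17:57278850-57279099, plus strand; Btk at chrX:134583141-134583390, minus strand; and Fcer1g at chr1:171234350-171234599, minus strand. Capitals mark AGGAAGT, searched on both strands.
Blnk: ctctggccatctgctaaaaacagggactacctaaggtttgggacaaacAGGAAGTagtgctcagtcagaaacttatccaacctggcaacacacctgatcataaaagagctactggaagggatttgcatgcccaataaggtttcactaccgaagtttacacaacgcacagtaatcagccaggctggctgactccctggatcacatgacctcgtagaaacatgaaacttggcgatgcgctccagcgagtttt
Vav1: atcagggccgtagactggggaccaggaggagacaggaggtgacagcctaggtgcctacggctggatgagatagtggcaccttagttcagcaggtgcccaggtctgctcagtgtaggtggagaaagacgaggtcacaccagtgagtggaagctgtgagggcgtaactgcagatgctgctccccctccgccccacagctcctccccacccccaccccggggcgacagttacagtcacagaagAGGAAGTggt
Btk: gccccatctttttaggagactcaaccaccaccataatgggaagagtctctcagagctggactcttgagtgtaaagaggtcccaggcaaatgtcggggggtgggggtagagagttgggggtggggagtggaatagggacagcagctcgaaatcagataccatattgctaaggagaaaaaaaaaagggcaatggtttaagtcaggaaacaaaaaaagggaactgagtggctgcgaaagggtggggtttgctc
Fcer1g: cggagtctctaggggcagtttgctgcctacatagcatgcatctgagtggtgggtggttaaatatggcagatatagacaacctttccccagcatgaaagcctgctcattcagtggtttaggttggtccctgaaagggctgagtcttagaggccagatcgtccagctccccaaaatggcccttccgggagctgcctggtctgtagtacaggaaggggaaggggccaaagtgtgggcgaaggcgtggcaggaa
In the Blnk window the motif began 202 bases before the start, and in the Vav1 window 10 bases before it, each on the gene's strand. The Btk and Fcer1g windows did not hold AGGAAGT, though both held the shorter core GGAA. RefSeq gave 12 windows for 9 of the 10 genes, and Tyrobp had no entry. AGGAAGT was found in 5 of the 12 windows, which belong to Blnk, Vav1, Grb2 and Sh3bp2, and in 7.69% of all 32851 windows. The related GAGGAA was found in 5 of the 12, which belong to Vav1, Grb2, Sh3bp2 and Syk, and in 23.3% of all windows. It overlapped AGGAAGT in Vav1, in Grb2 and in a Sh3bp2 window, so the counts of both motifs share bases. A match of letters is a description and not a site.

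The closest relatives of Blnk also gave readings. Lcp2, the counterpart of Blnk in T cells and platelets, read 116, over the receptor limit, with a local background of 94.6. Subtraction left 21.1 units, or 0.779 times the receptor limit of that scale, so the call was lost there. Clnk, the third adaptor of this family, known from mast cells, lay between the limits at 32.3. Blnk kept its call at the receptor limit after subtraction, but it was chosen for its signal, so no contrast within the family is read from this.

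Grb2 and Sh3bp2, the other adaptors, also read over the receptor limit. Grb2 (probe M300002374), which links tyrosine kinases to the Ras pathway in nearly every cell type, read 63.0, or 1.13 times the receptor limit and 2.74 times the blank limit. Its call at the receptor limit did not hold in all settings, with multiples of 0.962 after subtraction of the local background, 0.988 with normexp, 0.432 at the 99th percentile and 1.24 in the authors' table. The brightest spot beside Grb2 read 8348. Among receptor probes, the 96 that lay beside a spot over 5000 had a median signal of 22.8, and 4 of them (4.17%) passed the receptor limit. The 543 whose brightest neighbour read 100 or less had a median of 20.4, and 30 of them (5.52%) passed. With a brightest neighbour over 100 and up to 1000, the median was 21.2 and 17 of 442 (3.85%) passed. With one over 1000 and up to 5000, the median was 22.2 and 10 of 140 (7.14%) passed. The brightest spots beside Fcer1g, Tec and Sh3bp2 read 3026.5, 3394 and 2080. Whether a bright neighbour added to any of these readings was not tested. Sh3bp2 (probe M200002090), an adaptor that binds Syk and phospholipase C gamma and is mutated in cherubism, a jaw disease with overactive osteoclasts, read 158, or 2.83 times the receptor limit. At the 99th percentile Sh3bp2 stood at 1.08 times and Tec at 1.18 times, near the stricter limit, while Grb2 and Syk lay under it.

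Plcg2 and Vav1, the effectors that Blnk brings to the membrane, both passed the receptor limit in every setting run. Plcg2 (probe M200004371), the phospholipase C gamma of B cells and myeloid cells, read 326, or 5.84 times the receptor limit. Its multiples in the other settings ranged from 2.23 to 9.64. Vav1 (probe M200014958), an exchange factor that turns on Rac in blood cells, read 575, or 10.3 times the receptor limit, with a range of 3.94 to 16.8.

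**Figure D2:**
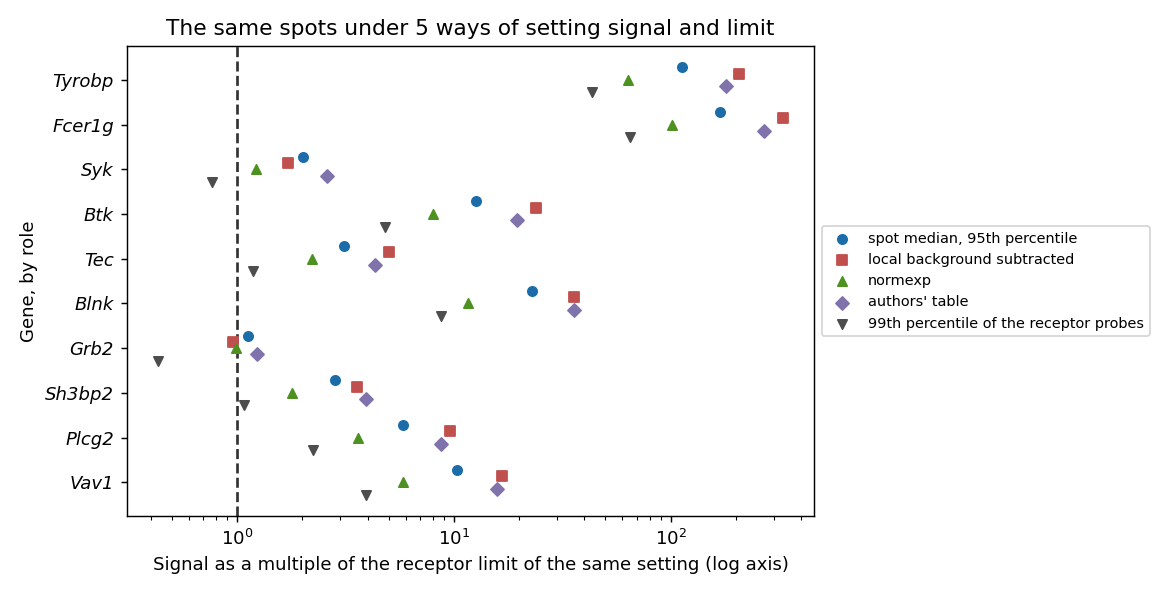
Signal of each of the 10 genes as a multiple of the receptor limit, on a log axis, when signal and limit are set in 5 ways. Only Grb2 and Syk have markers left of the dashed line at 1, Grb2 at 0.962, 0.988 and 0.432 and Syk at 0.768.

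The relatives of these genes passed the receptor limit in 4 of 11 measured cases, or 36.4%, beside 42.7% of all named genes. Zap70, which replaces Syk in T cells, gave 19.2, under the blank limit. Plcg1, the phospholipase C gamma of T cells and most other tissues, gave 22.1, also under it at 0.96 times. Vav2 and Vav3, relatives of Vav1 used in more tissues, lay between the limits at 24.5 and 37.6. In the Tec family, Txk and Bmx lay between the limits at 39.6 and 24.9. Grb2 differed in that both its relatives of blood cells gave signal over the receptor limit: Grap read 134, and Grap2, an adaptor of T cells, read 83.8 on 1 probe and 43.2 on its other probe. The 4 relatives over the receptor limit were Lcp2, Grap, Grap2 and Hcst, the DAP10 chain, at 182, and Lcp2 fell under it once the local background was subtracted. The list median was 37.6, beside 40.1 for all named genes. At the 99th percentile of the receptor probes 1 of the 11 passed. Paralogs were listed by sequence family and not matched for probe quality, and a low reading can come from a weak probe.

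**Figure D3:**
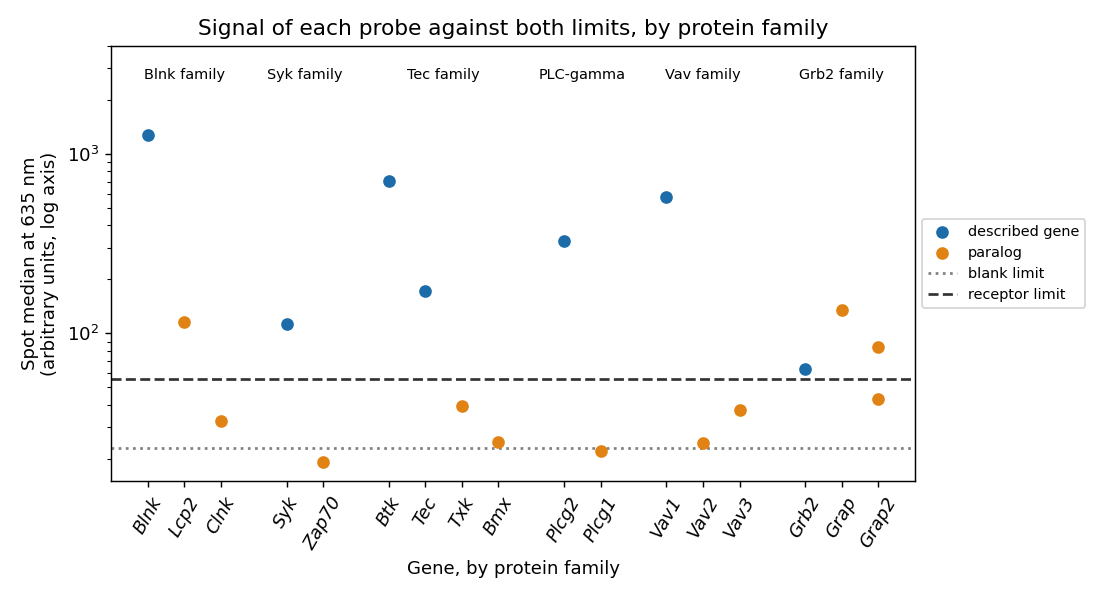
Spot median of each probe on a log axis, grouped by protein family, for the genes described (blue) and their paralogs (orange), with both limits as lines. All blue points lie over the dashed receptor limit, and in the Syk, Tec, phospholipase C gamma and Vav families the orange points lie under it.

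Partner adaptors that work beside Blnk lay over the receptor limit in 13 of 20 cases, or 65%, beside 42.7% of all named genes. Another 4 lay between the limits, so that 85% passed the blank limit, beside 72.8% of all named genes. The median of these adaptors was 213. Lat2, the membrane adaptor of B and myeloid cells also called NTAL, read 677, while Lat, its counterpart in T cells, lay between the limits at 26.9. Skap2, an adaptor of macrophage adhesion, read 2554 and its partner Fyb read 991. Themis2, an adaptor of B cells and macrophages, read 389, and Pik3ap1, which brings PI 3-kinase to B cell and Toll-like receptors, read 266 and 91.6 on its probes. Gab1, Gab2 and Sh3kbp1 were not over the blank limit at 19.6, 19.9 and 22.2. The membrane adaptors Lat2 and Lat therefore fell on different sides of the receptor limit, each on a single probe. No contrast between cell types is read from this.

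Downstream of calcium and diacylglycerol, 16 of 22 genes (72.7%) lay over the receptor limit, beside 42.7% of all named genes. Another 2 lay between the limits, so that 81.8% passed the blank limit, beside 72.8% of all named genes. The median was 116. Prkcd, a protein kinase C that Syk signalling activates, read 821, and Prkcb, the isoform best known below the B cell receptor, lay between the limits at 25.95. Card9, the adaptor that carries Syk signals to NF-kB in myeloid cells, read 100.04, and fell to 0.931 times the receptor limit once its local background of 74.9 was subtracted. Its partners Bcl10 and Malt1 read 584 and 146, and Malt1 stood at 1.25 times the limit after subtraction. The calcium channel subunit Orai1 and its sensor Stim1 read 163 and 99.5. Nfatc1, the calcium-driven factor of osteoclast formation, read 115, and Nfatc2 lay between the limits at 45.1. Rasgrp3, an exchange factor for Ras found in B cells and macrophages, read 202, and Rasgrp1, the T cell form, was not over the blank limit at 20.6. Itpr2, Ppp3r1 and Prkcq were not over it either, at 22.3, 22.2 and 22.03. At the 99th percentile of the receptor probes the count fell to 8 of 22.

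All 14 genes of the PI 3-kinase and Rac branch passed the receptor limit, beside 42.7% of all named genes, with a median of 283. Rac2, the Rac of blood cells and a target of Vav1, read 3152, and Rac1 read 2924. Pik3r5, Pik3r1 and Ptk2b passed narrowly, at 55.9, 56.6 and 58.8, and after background subtraction Pik3r5 and Ptk2b fell to 0.669 and 0.709 times the limit. At the 99th percentile 8 of the 14 passed.

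Brakes on the pathway also gave signal, with 14 of 21 genes (66.7%) over the receptor limit, beside 42.7% of all named genes. Another 5 lay between the limits, so that 90.5% passed the blank limit, beside 72.8% of all named genes. The median was 166. Ptpn6, the phosphatase SHP-1 that removes phosphate from Syk substrates, read 1424. Csk, the kinase that holds Src family kinases off, read 708, and Inpp5d, the lipid phosphatase SHIP-1, read 181. The inhibitory receptor genes Lilrb4a, Fcgr2b and Sirpa read 1605, 310 and 166, whereas Pirb lay between the limits at 36.9. The ubiquitin ligase gene Cbl lay between the limits at 49.5, and its relative Cblb was not over the blank limit at 22.3. Activating chains and inhibitory genes were thus both read over the receptor limit in the parental line.

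Apart from Blnk, few genes of B cell identity passed the receptor limit. The list had 18 measured genes, and its median was 25.2. Over the receptor limit lay 2 (11.1%), beside 42.7% of all named genes. Another 8 lay between the limits, so that 55.6% passed the blank limit, beside 72.8% of all named genes. Those over the receptor limit were Cd22, an inhibitory lectin of B cells, at 58.6 and Ebf1, a B cell transcription factor, at 56.4 on 1 of its 3 probes; the others read 21.98 and 22.4. Pax5, the factor that fixes B cell identity, read 19.6, and Ms4a1, which encodes CD20, read 23.4, just over the blank limit. The V(D)J recombinase genes Rag1 and Rag2 read 20.2 and 19.6, the complement receptor Cr2 read 19.3 and the coactivator Pou2af1 read 19.7, none over the blank limit. Spib, an ETS factor close to PU.1, lay between the limits at 47.6. Of the 18, 8 were not over the blank limit, and the highest, Cd22, stood at 2.55 times the blank limit and 1.05 times the receptor limit.

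Markers of cell types were listed with earlier results of these data known, so they are given as a description and do not test the label of the line. All 15 macrophage genes passed the receptor limit, among them Spi1, which encodes PU.1, at 858 and Csf1r at 642, with a median of 877. Of 14 T and NK cell genes 0 passed it and 7 (50%) passed the blank limit. Of 13 granulocyte and mast cell genes 2 (15.4%) passed the receptor limit, Csf3r at 105 and S100a8 at 60.2, and 8 (61.5%) passed the blank limit. Among all named genes the shares were 42.7% at the receptor limit and 72.8% at the blank limit. These marker lists hold genes chosen as typical of each cell type, and their part in the signal of any gene of the pathway was not tested.

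**Figure D4:**
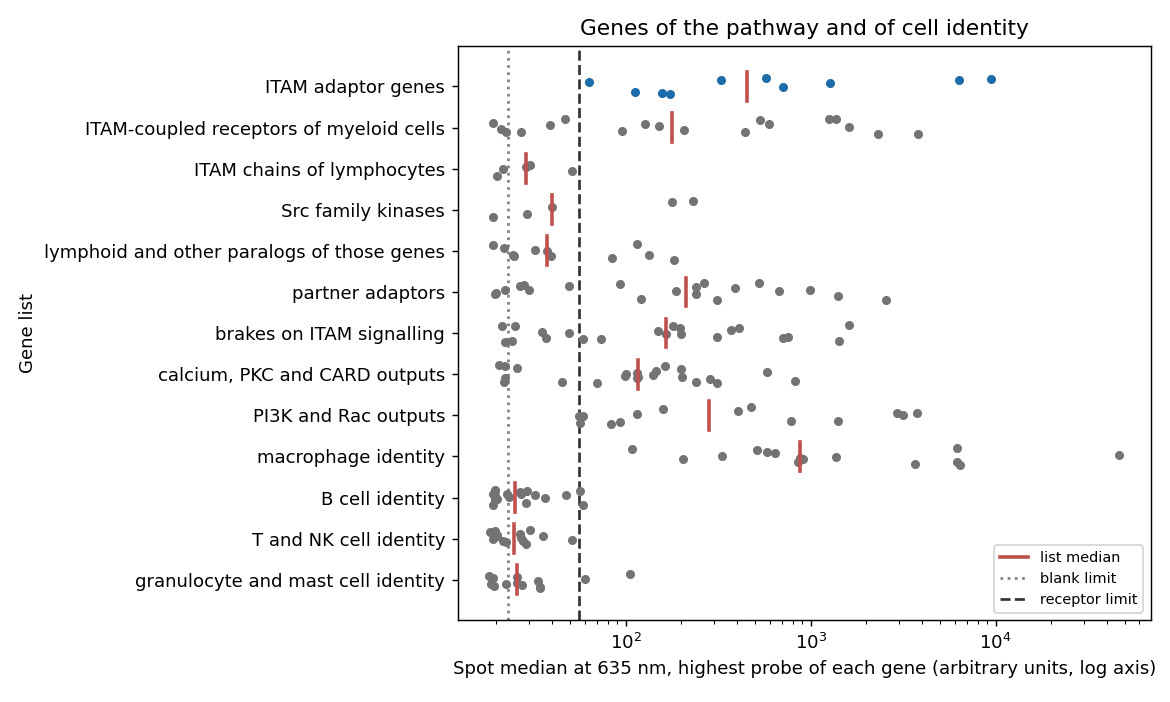
Spot median of the highest probe of every measured gene, on a log axis, by list, with the median of each list as a red bar and both limits as lines. The 10 genes described (blue) lie over the receptor limit, as do the PI 3-kinase and macrophage lists, while the lists of lymphocyte chains and of B, T and granulocyte identity have medians from 24.8 to 29.0.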

How the data were processed

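One array of parental RAW264.7 RNA was read. Per the labels' protocols, total RNA was amplified to amino allyl RNA and coupled to Cy5. Per the file headers, the deposited intensity values are spot medians and local background medians of a red-channel scan taken at 3 gains. Which software merged them is not stated in the labels or headers. The deposited table of processed intensity gives no scale or centring. Its median is 25, and for the 10 genes its values lay within 0.441 of 0.486 times the signal above the mean blank, so it is linear. Why this factor was used stays unknown.

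Of 27456 spots, 0 were flagged. Blank spots (2736) were trimmed by 5% at each end, and the limit is their mean plus 2 SD. A gene takes its highest probe. Of the gene probes, 20690 had 1 symbol, 2783 none and 0 several, from the platform annotation, and 20556 matched a RefSeq table of GRCm38.p6 by gene identifier. No build is named for the probes. Normexp used limma 3.58.1 with an offset of 50. The code for the blank limit was run on simulated spots with absent and present genes set far apart. Their separation was built in, so it says nothing about genes near the limit, and the receptor limit was not simulated. All genes described, with each probe, were named, and of other lists examples. The genes and lists were chosen with earlier results of these data known. With 1 array, its number limits the precision, and no statistical test was made.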

Additional observations from a re-analysis of the deposited data

How the results depend on the processing

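The limits rest on 1 array, and no paired analysis was possible because there is 1 sample. The blank limit was also set with 1 or 3 SD, untrimmed blanks, their 99th percentile, blanks of the own block or negative controls. It was set again after subtraction of the local background and with normexp. All 10 genes lay over it each time. For the authors' table no blank limit was set. There the check asked only for a filled, nonzero value, which all 10 genes had. At the receptor limit 9 passed after background subtraction and 9 with normexp (Grb2 fell short in both), 10 in the authors' table, and 8 at the 99th percentile of the receptor probes (Grb2 and Syk fell short). That percentile also lowered the relatives from 4 genes to 1, the calcium outputs from 16 to 8, the PI 3-kinase and Rac genes from 14 to 8, B cell identity from 2 to 0 and granulocyte and mast cell identity from 2 to 0, as a higher limit must. B cell identity stood at 1 in the authors' table, with the lowest probe and with the mean of the probes. Of all alternatives run over genes and counts, 329 gave the same call or a count within 1.5 times. A further 8 counts moved more, and 4 calls were lost. Not all of these alternatives were free to differ. With 1 probe for each of the 10 genes, the lowest probe and the mean of the probes had to give the same count. For these genes the authors' table is linear in the same signal.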

Other observations

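Among the 3 other genes of the lists whose probes fell on different sides of the receptor limit, besides Ebf1, Rasgrp4, an exchange factor for Ras in mast cells and neutrophils, read 239 and 29.0. Prkca, a widely used protein kinase C, read 69.7 and 39.5, the first with a local background of 57.4, and Grap2 read 83.8 and 43.2. Which probe follows the transcript was not tested.

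The local background of the 10 genes ranged from 37.0 to 721 units, all over the median of 17.1 around blank spots. The ratio of spot to local background had a median of 4.66 over the 10 genes and of 2.94 over all gene probes past the receptor limit. Btk combined a signal of 706 with a local background of 57.8, whereas Blnk had 1276 with 308. Both values come from single spots.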
